A study of Mus musculus with 16 samples.

Results

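The ER- luminal cells of the mouse mammary gland were compared between the nipple region and the ducts. Each cell of the series was given to the class (basal, ER+ luminal, ER- luminal, fibroblast, myeloid or endothelial) whose marker genes had the highest mean z-score, so its members were chosen by their measured levels of 28 genes. The ER- luminal class was read from *Krt18*, *Elf5*, *Kit*, *Wfdc18*, *Ltf* and *Aldh1a3*. It held 146 of the 843 nipple and duct cells that passed the cell filters, of 893 deposited, with 51 cells from 4 nipple fragments and 95 cells from 6 duct fragments. The fragments were dissected singly from mammary glands of C57BL/6 mice in puberty. The mice used for the single cells were *Krt14-Cre/Rosa26-mTmG*, aged 5 weeks, in which a *Krt14* promoter drives the Cre and a fluorescent reporter is carried. The dissection methods also name wild-type mice and an age of up to 6 weeks, and the labels give neither age nor genotype. No treatment is named for any fragment. Single cells were sorted into 96-well plates and sequenced from the 3' ends of their transcripts with a SMART-seq protocol. Molecules were told apart by unique molecular identifiers (UMIs), and a count is the number of distinct UMIs. A further 57 cells of this class from terminal end buds (TEBs) entered the same fit, except those of 1 TEB fragment with only 3 of them, and helped to set the spread.

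ER- luminal cells line the lumen of the ducts together with the hormone-sensing ER+ luminal cells. They lack the estrogen receptor, depend on the Ets factor Elf5, carry the receptor Kit, and hold the progenitors of the milk-secreting alveoli. The nipple end of the tree is where the main duct opens through skin with a stratified, keratin-rich epithelium, and the ducts beyond it are lined by a simple luminal layer over basal cells.

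The fragments are named as in the labels, N21 to N24 for nipple and D31, D32, D51, D52, D61 and D62 for duct. The labels do not say which fragments share an animal, so each p-value measures the spread between fragments, and the first digit of these names is not explained. No first digit is shared by nipple and duct, so location and whatever that digit stands for cannot be told apart. The class sums held 239637 to 434303 UMIs in nipple and 419159 to 694498 in duct, from 12 to 15 and 9 to 20 cells. The median UMI count per class cell was 18931 to 22320 in nipple and 16178 to 22366.5 in 4 duct fragments, but 43191.5 in D61 and 46192 in D62, and the difference by location did not pass (exact permutation test, two-sided, p = 0.352, adjusted over the 7 measures 0.433). Genes per cell were fewer in nipple, with fragment medians of 2282 ± 143 (SD, n = 4) against 3090 ± 380 (SD, n = 6), though the ranges overlapped (exact permutation test, p = 0.0190, adjusted 0.0444, where the smallest p that 210 arrangements can give is 0.00952). All 95 well barcodes in use occurred in at least 2 fragments, and 33 occurred in all 16, so that a shared barcode names a well position and not a cell.

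The class carried its defining markers in both locations, *Elf5* the least of them in nipple. *Wfdc18*, a WAP-domain protein of this lineage, stood at 12024, 12995, 10692 and 12077 CPM (UMIs per total UMIs, multiplied to a common total and scaled by the TMM method) in the nipple fragments and at 4716 to 9619 in duct. *Ltf*, which encodes lactoferrin, was at 1544 ± 425 CPM in nipple and 754 ± 571 in duct. *Aldh1a3*, an enzyme of retinoic acid synthesis, was at 1329 ± 299 and 1827 ± 392 CPM, *Kit* at 79.0 ± 38.8 and 136 ± 85.1, and the luminal keratin gene *Krt18* at 7133 ± 1819 and 6885 ± 935 (SD, n = 4 nipple and 6 duct for each). *Elf5* was low in nipple, where the 4 fragments held 3.62, 9.40, 4.92 and 13 CPM and the duct fragments 25.8 to 63.5 (median 34), and 8 of 51 nipple cells and 39 of 95 duct cells had at least 1 *Elf5* UMI. No fibroblast had an *Elf5* UMI in either location (0 of 121 and 0 of 37, at median depths of 37999 and 32696 UMIs). The level of *Esr1*, the estrogen receptor gene, was 7.37 CPM in nipple and 11.9 in duct, and the endothelial genes of the rule were at 0, except for 1 duct fragment with *Cdh5* at 1.81 CPM. Other ER+ luminal genes of the rule were more widespread. *Cited1* had a UMI in 13 of 51 nipple and 74 of 95 duct cells, and *Prlr* in 12 and 55. Pooled without scaling, *Cited1* was at 150 and 290 CPM in nipple and duct, against 1406 and 2159 in ER+ luminal cells. *Prlr* was at 115 and 119, against 903 and 901. *Foxa1* was at 22.9 and 18.5 and *Pgr* at 7.17 and 20.5. These 28 genes chose the cells, so their values are given as a description with no test.

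**Figure D1:**
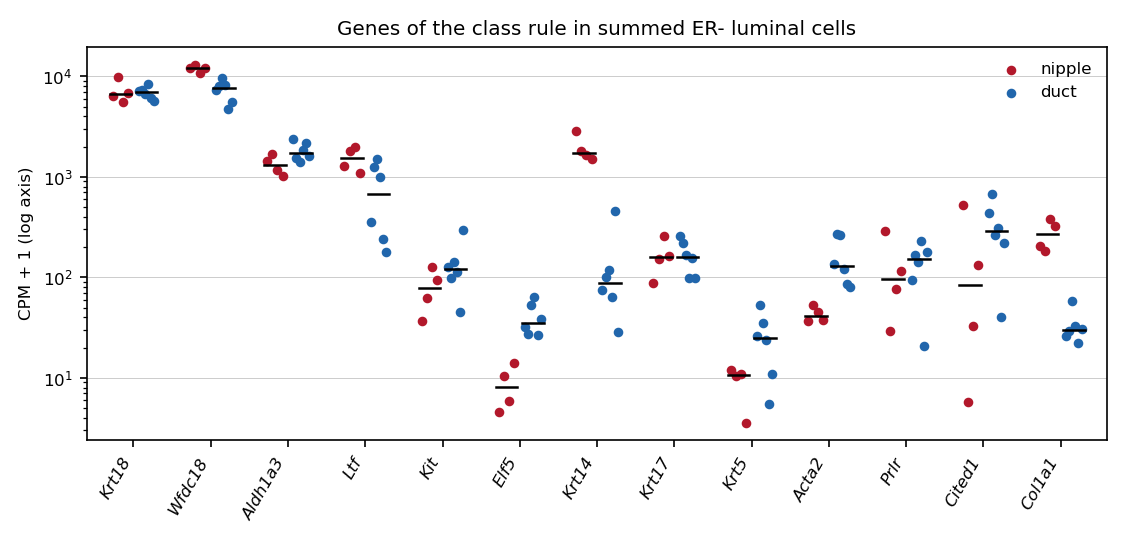
Level of genes of the class rule in the ER- luminal cells of each fragment (CPM after TMM scaling plus 1, log axis), with 1 point per fragment for 4 nipple and 6 duct fragments and a black line at each median. *Elf5* is lower and *Wfdc18* higher in every nipple fragment than in every duct fragment, and *Krt14* stands at 1492 CPM or more in every nipple fragment and at 459 or less in every duct fragment.

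*Krt14*, a keratin gene of basal and stratified epithelium, was the rule gene that separated the locations most, although the rule counts it against this class. Its level was 2867, 1809, 1659 and 1492 CPM in the 4 nipple fragments and 27.4 to 459 in duct (median 87.1), where 1 cell of D61 held 50.9% of all the duct UMIs. At least 10 *Krt14* UMIs were found in 33 of 51 nipple cells and in 3 of 95 duct cells. The other basal genes did not share this pattern: *Krt5*, the keratin gene usually expressed with *Krt14*, was at 8.17 ± 3.77 CPM in nipple and 24.9 ± 17.3 in duct, *Acta2* at 42.1 ± 7.44 and 159 ± 85.4, and *Krt17* at 165 ± 70.9 and 164 ± 63.4 (SD). In pooled CPM without scaling, *Krt14* was at 1740 in nipple ER- luminal cells, 212 in nipple ER+ luminal cells, 58.1 in nipple fibroblasts and 5720.5 in nipple basal cells, and *Krt5* was at 7.16 in nipple ER- luminal and 1384 in nipple basal cells. The RNA expected from other wells of the same fragment, estimated from fibroblast and myeloid genes, came to 2.60% of the *Krt14* UMIs in nipple and to 39.6% in duct.

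The assignment near the edge of the class was as follows. The margin is the mean z-score of the ER- luminal genes less that of the next class, and it was 0.0206 and 0.0650 in the members closest to the edge and -0.00106 and -0.0173 in the cells just outside. In a Seurat clustering of the same cells, 48 of the 51 nipple members and 80 of the 95 duct members lay in the cluster led by ER- luminal genes, and most of the others lay in an ER+ luminal cluster. The class took 14.9% ± 1.97 of the cells of a nipple fragment and 18.9% ± 4.24 of those of a duct fragment (SD, n = 4 and 6), a share that the rule's own genes set.

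RNA of other cell types moved with location in part. The summed level of fibroblast genes outside the rule was 796 to 1328 CPM in nipple and 148 to 277 in duct, with no overlap (exact permutation test, p = 0.00952, adjusted 0.0444). Basal genes outside the rule summed to 534 to 982 CPM in nipple and 228 to 565 in duct (p = 0.0190, exact permutation test, adjusted 0.0444), a list that includes *Sparc*, which fibroblasts express too. The means of these sums differed by 275 CPM, and *Sparc* alone was at 525 CPM in nipple and 80.7 in duct, pooled without scaling. The higher sum in nipple was thus that of *Sparc* and not of the list as a whole. Myeloid genes (13 to 64.5 CPM against 5.18 to 100.3), mast cell genes (0 to 58.4 against 0 to 25.9) and ER+ luminal genes (213 to 951 against 261 to 859) overlapped, and the exact permutation test gave p = 0.838, 0.267 and 0.371. Mast cells also carry *Kit*, and no class cell held more than 5 mast cell UMIs. The share of a cell's RNA expected from other wells was 2.14% to 3.92% in nipple and 2.52% to 11.2% in duct.

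Between nipple and duct, 78 of 6576 tested genes (1.19%) differed at an adjusted p under 0.05 (edgeR quasi-likelihood test on the sums per fragment, Benjamini-Hochberg), 48 of them higher in nipple (0.73%) and 30 higher in duct (0.456%). Of the 78, 66 also showed no overlap between the 4 nipple and 6 duct fragments, against 239 of all 6576 tested genes (3.63%). The genes higher in nipple included several that were near 0 in duct, a keratinocyte surface gene, S100 and annexin genes, epithelial transcription factors and fibroblast genes. The genes higher in duct included a claudin, an EGF family ligand, collagen IX chains, the milk gene *Csn3*, DNA replication genes and a chaperone. The size of the log2 difference was at least 0.58 in every called gene, 2 or more in 23 of those higher in nipple and 14 of those higher in duct, and its median over all tested genes was -0.03. An unadjusted p under 0.05 was reached by 267 genes on the nipple side and 358 on the duct side. Leaving out any single fragment kept 23 of the 78 calls in all 10 fits.

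*S100g*, which encodes the calcium-binding protein calbindin-D9k (chromosome X, 162961992 to 162964599, minus strand, GRCm38), had the largest difference. The nipple fragments held 1269, 89.3, 832 and 90.7 CPM, and 5 of the 6 duct fragments held 0, with 4.98 in D62. In all, 743 UMIs were counted in nipple against 2 in duct, a pooled ratio of 834 (exact 95% interval 230 to 6903, counting error only; adjusted p = 0.00401, edgeR). The signal came from few cells: 11 of 51 nipple cells and 1 of 95 duct cells had an *S100g* UMI, each nipple fragment had 2 cells with 3 or more, and the leading cell gave 55.6% to 85.7% of a fragment's UMIs. In nipple fibroblasts 10 of 121 cells had an *S100g* UMI, at 2.76 CPM pooled against 532 in the ER- luminal class, and in TEB ER- luminal cells the mean was 0. The call was lost without D62 only.

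*Tnfrsf11b*, the gene of osteoprotegerin, a decoy receptor for the RANK ligand, was at 43.4, 28.2, 49.2 and 88.1 CPM in nipple with 0 UMIs in duct. It was therefore at least 53.9-fold higher in nipple, against a floor of 3 UMIs over the duct sums (adjusted p = 0.00792, edgeR; lost without N24). It was seen in 8 of 51 nipple cells and 0 of 95 duct cells. Were all cells independent, which cells of 1 fragment are not, the 0 would allow a share of up to 3.16% of cells with a UMI. That share sets no limit on cells that express the gene. The leading cell gave 88.2% to 100% of a nipple fragment's UMIs, so each nipple value rested mostly on 1 cell. A *Tnfrsf11b* UMI was also found in 23 of 121 nipple fibroblasts. Pooled without scaling, nipple ER- luminal cells held 51.6 CPM, nipple basal cells 24.6, nipple fibroblasts 16.7 and nipple ER+ luminal cells 1.90, with 4.66 in duct basal cells. *Cyp4b1*, a cytochrome P450 of fatty acid hydroxylation, was at 141, 65.8, 51.7 and 77.7 CPM in nipple, with 2 UMIs in all duct sums (ratio 117, exact 95% interval 31.5 to 977; adjusted p = 0.000680). Fibroblasts held *Cyp4b1* as well, at 54.5 CPM pooled in nipple and 101 in duct.

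*Fcgbp*, a gene of a secreted mucus-associated protein that binds the Fc part of IgG (chromosome 7, 28071236 to 28120862, plus strand), was at 213, 89.3, 500 and 57.0 CPM in nipple and 0 to 23.8 in duct (median 4.73). All nipple fragments lay above all duct fragments, with a log2 difference of 4.77 ± 0.71 (SE, adjusted p = 0.000317, edgeR). A *Fcgbp* UMI was found in 26 of 51 nipple cells, 8 of 95 duct cells and 2 of 121 nipple fibroblasts.

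*Foxq1*, a forkhead transcription factor gene, was at 65.1, 164, 170 and 31.1 CPM in nipple and 0 to 14.5 in duct (log2 difference 4.52 ± 0.96, adjusted p = 0.0120), and an exon of it overlaps an annotated gene on the opposite strand. *Eps8*, which encodes an actin-regulating substrate of the EGF receptor, was at 97.6, 70.5, 118 and 93.3 CPM in nipple and 0 to 7.24 in duct (4.67 ± 0.79, adjusted p = 0.00116). *Trim29*, a gene of stratified epithelia, was at 101, 136, 170 and 161 CPM in nipple and 4.56 to 15.9 in duct (3.71 ± 0.63, adjusted p = 0.00116). *Fcgbp*, *Foxq1*, *Eps8*, *Trim29* and *Cyp4b1* stayed called without any single fragment.

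*Ly6d*, a surface protein gene of keratinocytes and of some luminal cells, was among the most abundant of the genes higher in nipple. It was at 1927, 1682, 2070 and 1085 CPM in nipple and 6.08 to 253 in duct (median 74.1), with a log2 difference of 4.02 ± 0.84. The groups stood far apart, yet the adjusted p was 0.0433 and the call was kept in only 1 of the 10 fits that left out a fragment, that without D32. With each cell thinned to 5000 UMIs its adjusted p was 0.00026. In D32, D51 and D62 the leading cell held 65.1%, 84.0% and 77.1% of the *Ly6d* UMIs, whereas in the nipple fragments no cell held more than 23.1%.

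**Figure D2:**
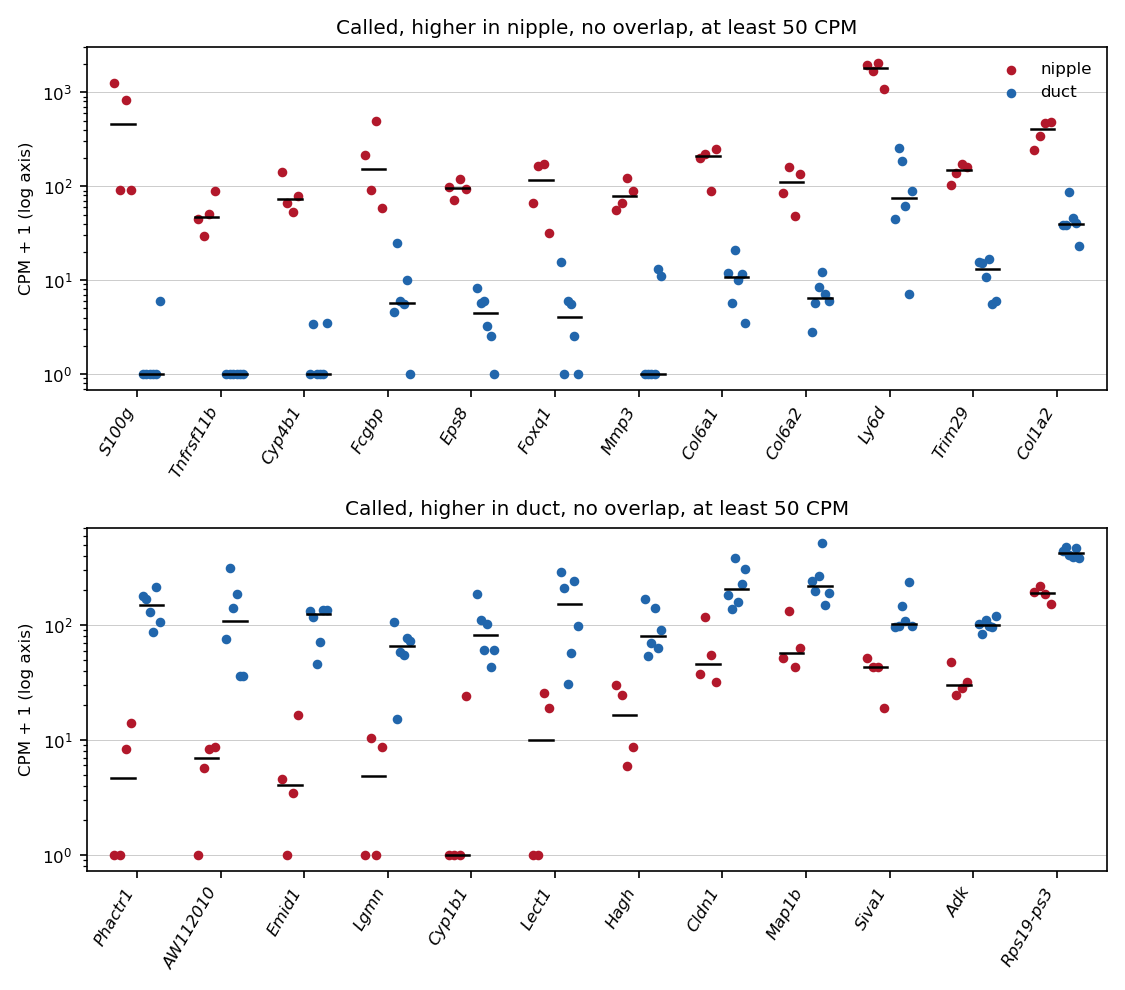
Level of called genes in the ER- luminal cells of each fragment (CPM after TMM scaling plus 1, log axis), 1 point per fragment and a black line at each median. The upper genes are higher in all 4 nipple fragments than in all 6 duct fragments, as *Fcgbp* is with 57.0 to 500 against 0 to 23.8, and the lower genes are higher in all duct fragments.

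*Crip1*, a small LIM-domain protein gene, rose at a high level, with 7400, 5633, 5890 and 6927 CPM in nipple and 550 to 1789 in duct (log2 difference 2.32 ± 0.32, adjusted p = 0.00162). *Nupr1*, a stress-induced chromatin protein gene, was at 1273, 2626, 2131 and 2464 CPM in nipple and 102 to 766 in duct (2.25 ± 0.47, adjusted p = 0.0433, kept in 4 of 10 fits without a fragment). *Timp1*, a metalloproteinase inhibitor gene, was at 199 ± 18.2 against 43.1 ± 24 CPM, and *Pam*, of a peptide-amidating enzyme, at 124 ± 12.9 against 27.8 ± 19.6 (SD), with adjusted p of 0.0433 and 0.0308, each kept in 1 of 10. Fibroblasts held more *Timp1*, at 382 CPM pooled without scaling in nipple and 588 in duct, against 183 in nipple ER- luminal cells. *Arg1*, the arginase gene, was called although N23 held 2.46 CPM and the groups overlapped.

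Within the nipple, these genes were not spread evenly over the 51 cells. Counting cells with 3 or more UMIs, *Ly6d* was present in 43, *Krt14* in 36 and both in 33, and 5 cells had neither. *Fcgbp* was present in 19 cells, of which 18 had *Krt14* and 17 had *Ly6d*. All 21 cells with *Eps8*, all 14 with *Foxq1* and all 9 with *Arg1* also had *Ly6d*, as did 43 of all 51 cells. The 8 cells with *S100g* shared none with the 5 that had *Tnfrsf11b* or the 9 that had *Arg1*, while 4 of the 5 *Tnfrsf11b* cells also had *Arg1*. These counts come from 4 fragments and rest on cells of unlike depth, and are given as a description. Several genes were in few cells, and whether any overlap differs from that of unrelated genes was not tested.

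Fibroblast genes formed a further group among those higher in nipple. Of the 8 tested genes of the fibroblast list, 8 were higher in nipple, 4 were called, and the median log2 difference was 2.29. Over all tested genes, 0.73% were called in nipple and the median was -0.03. *Col1a2*, a chain of type I collagen, was at 242, 343, 470 and 482 CPM in nipple and 22.4 to 86.3 in duct (3.10 ± 0.40, adjusted p = 3.2e-05). The type VI collagen gene *Col6a1* differed by 4.25 ± 0.54 (adjusted p = 3.2e-05), *Col6a2* by 4.08 ± 0.67 (adjusted p = 0.000892) and *Lum*, a gene of a collagen-binding proteoglycan, by 2.32 ± 0.52 (adjusted p = 0.0197).

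*Sparc*, a matrix glycoprotein gene of the basal list, differed by 2.63 ± 0.40 (adjusted p = 0.000509) and *Mmp3*, a stromelysin gene, by 4.32 ± 0.99 (adjusted p = 0.0213, kept in 5 of 10). In the other nipple epithelium *Col1a2* and *Mmp3* stood at similar levels: pooled without scaling, *Col1a2* was at 370 CPM in ER- luminal, 391 in ER+ luminal and 390 in basal cells of the nipple, against 42, 44.7 and 59.0 in duct. *Mmp3* was at 80.3, 71.2 and 70.2 CPM in nipple and at 4.0, 4.7 and 4.7 in duct. The other genes were less even, with *Col6a1* at 167, 71.2 and 331, *Col6a2* at 91.7, 58.4 and 122, and *Sparc* at 525, 569 and 3251 CPM in nipple ER- luminal, ER+ luminal and basal cells. The nipple to duct change of *Col1a2* differed between ER- and ER+ luminal cells by 0.08 ± 0.33 on the log2 scale (edgeR class by location term, adjusted p = 0.978), that of *Sparc* by 0.03 ± 0.34 (adjusted p = 0.994) and that of *Col6a1* by 2.31 ± 0.65 (adjusted p = 0.191). Against basal cells the log2 change was larger in ER- luminal cells for *Col6a1* (2.73 ± 0.55, adjusted p = 0.00512), *Col6a2* (2.81 ± 0.73, adjusted p = 0.0431, kept in 3 of 10 fits without a fragment) and *Sparc* (2.38 ± 0.32, adjusted p = 0.00159). The difference did not pass for *Col1a2* (0.35 ± 0.39, adjusted p = 0.821), *Lum* (-0.56 ± 0.67, adjusted p = 0.828) or *Mmp3* (0.58 ± 1.14, adjusted p = 0.925). Duct basal cells held 116, 56.3 and 2952 CPM of *Col6a1*, *Col6a2* and *Sparc*, pooled without scaling. Duct ER- luminal cells held 9.26, 5.62 and 80.7, so the term compares fold changes from unlike levels in duct. In CPM, *Col6a1* went from 116 to 331 in basal cells and from 9.26 to 167 in ER- luminal cells. Nipple fibroblasts held 8154 CPM of *Col1a2*, and the RNA expected from other wells was 39.0% of the nipple UMIs of *Col1a2*, 26.9% of *Col6a1*, 41.4% of *Col6a2*, 34.8% of *Sparc*, 53.4% of *Lum* and 41.2% of *Mmp3*. Fibroblast genes set this estimate, *Col1a2*, *Col6a1*, *Col6a2* and *Lum* among them, and the part of fibroblast RNA in these differences was not tested. Without the genes over 20% by this estimate in either location, 36 calls were made.

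Among luminal progenitor and alveolar genes, 3 of 30 tested were called higher in nipple and 1 in duct, against 0.73% and 0.456% of all tested genes. There were 15 on each side of 0, with a median log2 difference of 0.06. *Cebpd*, a C/EBP transcription factor gene, was at 665, 1175, 738 and 554 CPM in nipple and 196 to 417 in duct (1.35 ± 0.24, adjusted p = 0.00162). The Ets factor genes *Elf3* and *Ehf*, of epithelial differentiation, rose by 1.26 ± 0.26 (adjusted p = 0.00831, kept in 8 of 10 fits without a fragment) and 1.40 ± 0.32 (adjusted p = 0.0213, kept in 6). The exons of *Cebpd* and of *Elf3* each overlap an annotated gene on the opposite strand.

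*Csn3*, the gene of the milk protein kappa-casein, was at 871, 1626, 1428 and 1127 CPM in nipple and at 2078 to 3189 in duct, so that all duct fragments were higher (-1.06 ± 0.21, adjusted p = 0.00792). It was found in 20 of 51 nipple cells and in 92 of 95 duct cells, and in 25 of 121 and 14 of 37 fibroblasts. Among cells of the ER- cluster alone its adjusted p was 0.206. The epithelial adhesion gene *Epcam* (0.21 ± 0.13, adjusted p = 0.661) and *Mfge8*, of a milk fat globule protein (0.40 ± 0.18, adjusted p = 0.477), were not called. The simple keratin genes *Krt8* (0.10 ± 0.21, adjusted p = 0.944) and *Krt19* (-0.08 ± 0.17, adjusted p = 0.944) were not called either, nor was any other of the 4 tested in that list.

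S100 proteins, small calcium-binding proteins, lay largely on the nipple side. Of 10 tested, 5 were called higher in nipple and 0 in duct, where 0.73% and 0.456% of all tested genes were. A positive log2 difference was found in 9 of the 10, and the median was 0.70 against -0.03 for all tested genes. *S100a6* stood at 8000, 10139, 6729 and 7536 CPM in nipple and at 4209 to 5046 in duct (0.82 ± 0.13, adjusted p = 0.000825). *S100a10*, the partner of annexin A2, differed by 0.73 ± 0.14 (adjusted p = 0.00504), *S100a14* by 1.62 ± 0.33 (adjusted p = 0.00792) and *S100a11* by 0.58 ± 0.15 (adjusted p = 0.0460, kept in 1 of 10). *S100a16* (0.56 ± 0.17, adjusted p = 0.146) and *S100a1* (0.66 ± 0.23, adjusted p = 0.208) were not called.

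Annexins, which bind membranes in a calcium-dependent way, and the beta-galactoside-binding galectins gave 4 calls of 14 tested, all in nipple, with a median of 0.58. The share called in nipple over all tested genes was 0.73%. *Anxa8* was at 148, 263, 406 and 161 CPM in nipple and 12.2 to 76.5 in duct (2.73 ± 0.58, adjusted p = 0.0120). *Lgals3*, the galectin-3 gene, differed by 0.84 ± 0.18 (adjusted p = 0.0128), *Anxa5* by 0.75 ± 0.17 (adjusted p = 0.0151) and *Anxa2* by 0.62 ± 0.14 (adjusted p = 0.0276, kept in 3 of 10). *Anxa1* missed the threshold (0.55 ± 0.16, adjusted p = 0.0923), as did *Anxa3* (0.85 ± 0.29, adjusted p = 0.201).

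Other lists gave 1 call in nipple or none, where 0.73% of all tested genes were called in nipple. Stratified epithelium genes had 1 of 21, *Ly6d*, with a median of -0.06, and neither *Sfn* (-0.25 ± 0.22) nor the plakoglobin gene *Jup* (-0.06 ± 0.22) was called. These 21 leave out *Trim29*, which was called but is not in the list, and *Krt14*, a rule gene that was not tested. The list of secreted defence proteins had 1 of 12, but this was *Nupr1*, the chromatin protein gene named above, and no other member was called. The lipocalin gene *Lcn2* was at 2544 ± 820 CPM in nipple and 2625 ± 665 in duct (adjusted p = 0.982). Antigen presentation and interferon genes had 1 of 22, *Ifitm3* (1.14 ± 0.28, adjusted p = 0.0433, kept in 1 of 10), with a median of 0.40. Chemokines, cytokines and NF-kB targets had 1 of 21, *Tnfrsf11b*, with 16 of the 21 on the nipple side and a median of 0.48. *Cxcl1* (365 ± 92.9 against 137 ± 56.4 CPM) and *Csf1* (131 ± 32.6 against 41.8 ± 19.3 CPM) were among those not called. *Gpx4*, which removes lipid peroxides, was the 1 redox enzyme gene of 40 tested that was called in nipple (0.81 ± 0.16, adjusted p = 0.00786), and 21 of the 40 had a log2 difference above 0.

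Among the genes higher in duct, *Phactr1*, which regulates actin and protein phosphatase 1 (chromosome 13, 42680623 to 43138526, plus strand), was near 0 in nipple. The nipple fragments held 0, 0, 7.38 and 13 CPM and the duct fragments 86.1 to 213 (median 148), with UMIs in 4 of 51 and 53 of 95 cells. The log2 difference was -4.57 ± 0.74 (adjusted p = 0.000825). *Emid1*, of a secreted EMI-domain protein, was at 3.62, 0, 2.46 and 15.5 CPM in nipple and 44.4 to 135 in duct (-4.07 ± 0.60, adjusted p = 0.000317). *Cyp1b1*, a cytochrome P450 of estrogen and xenobiotic metabolism, was listed at 0 in 3 nipple fragments and at 23.3 CPM in N24, against 42.6 to 185 in duct (-3.76 ± 0.78, adjusted p = 0.00951). All 3 stayed called without any single fragment.

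*Cldn1*, the only tight junction gene of 26 tested that was called, was at 36.2, 118, 54.2 and 31.1 CPM in nipple and 138 to 382 in duct (-2.0 ± 0.39, adjusted p = 0.00583), with UMIs in 16 of 51 and 77 of 95 cells. The more abundant claudin genes *Cldn4* (2517 ± 626 against 2739 ± 489 CPM) and *Cldn3* (1664 ± 238 against 1872 ± 114 CPM) were not called. *Map1b*, a microtubule-associated protein gene, fell by 1.89 on the log2 scale in nipple (SE 0.38, adjusted p = 0.00792), and *Hspa8*, the constitutive Hsp70 chaperone gene, fell by 1.10 (SE 0.19, adjusted p = 0.00162), from 889 to 1494 CPM in duct to 427 to 756 in nipple.

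*Btc*, the gene of the EGF receptor ligand betacellulin, had 86 UMIs in duct (11.9 to 44.8 CPM) and 0 in nipple, and so was at least 12.8-fold lower in nipple (adjusted p = 0.0130; lost without N24). It was seen in 0 of 51 nipple cells and in 21 of 95 duct cells. Were all cells independent, the 0 would allow a share of up to 5.88% of cells with a UMI. Cells of 1 fragment are not independent, and the share again sets no limit on cells that express *Btc*. In ER+ luminal cells *Btc* was at 136 CPM in nipple and 166 in duct, pooled without scaling. Of the 8 tested genes of the EGF family and its receptors, 7 were on the duct side with a median of -0.58, and *Btc* alone was called. *Areg*, of the amphiregulin ligand, ranged from 27.1 to 433 CPM over the nipple fragments and was not called (adjusted p = 0.861).

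*Lect1*, the chondromodulin gene, was at 0, 0, 24.6 and 18.1 CPM in nipple and 29.6 to 288 in duct (-3.65 ± 0.85, adjusted p = 0.0308, kept in 4 of 10). The collagen IX chain genes *Col9a1* (-3.72 ± 0.95, adjusted p = 0.0460) and *Col9a2* (1 nipple UMI against 70 in duct, ratio 31.2, exact 95% interval 5.41 to 1248, adjusted p = 0.0475) were called with 3 and 0 calls in 10. *AW112010*, a lincRNA (-4.53 ± 1.06, adjusted p = 0.0433), and *Lgmn*, of a lysosomal endopeptidase (-3.88 ± 0.90, adjusted p = 0.0234), were lost among cells of the ER- cluster (adjusted p = 0.234 and 0.0792). Pooled without scaling, *AW112010* was at 115 CPM in duct ER- luminal, 453 in ER+ luminal, 45.3 in basal and 72.1 in fibroblast cells of the duct. In the same order *Lgmn* was at 62.9, 79.0, 41.0 and 139. *Hagh* (glyoxalase II), *Siva1* and *Adk* (adenosine kinase) were kept in 1, 0 and 0 of 10. The duct side also held 3 pseudogene rows, among them *Rps19-ps3* (-1.20 ± 0.25, adjusted p = 0.00792), whose reads cannot be told from those of near-identical copies.

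Cell cycle and DNA replication genes lay mostly on the duct side, with 38 of 47 tested below 0. Their median log2 difference was -0.82, against -0.03 for all tested genes, of which 0.456% were called in duct and 0.73% in nipple. With each cell thinned to 5000 UMIs only 11 of them could be tested, with a median of -0.39. Of the 47, *Mcm5* (-3.80 ± 0.94, adjusted p = 0.0427) and *Mcm7* (-2.94 ± 0.74, adjusted p = 0.0433), subunits of the replicative helicase, were called in duct, each kept in 3 of 10 fits and with overlapping fragments. *Ccnd1*, the cyclin D1 gene, was called in nipple (1.12 ± 0.28, adjusted p = 0.0433, kept in 2 of 10). A UMI of *Mki67* or *Top2a*, genes of dividing cells, was found in 3 of 51 nipple cells and 29 of 95 duct cells, and after thinning each cell to 5000 UMIs in 3 of 50 and 13 of 95.

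No gene was called among 77 tested cytosolic ribosomal proteins (median 0.00), 75 nuclear oxidative phosphorylation genes (-0.12), 46 actin and adhesion genes (-0.08), 28 fatty acid and sterol genes (-0.38), 18 genes of TGF-beta, BMP and IGF signalling (0.25), 18 of ion and water transport (0.16), 10 of the Wnt pathway (-0.05), 7 of the Notch pathway (-0.08) and 8 ER+ luminal genes outside the rule (-0.54). In all, 12 lists with 293 tested genes had no call in edgeR, and 28 of these genes had an unadjusted p under 0.05 and 6 were called by DESeq2. Among 33 immediate early and heat shock genes, *Jun* was called in nipple (0.74 ± 0.19, adjusted p = 0.0453, kept in 2 of 10) and *Hspa8* in duct. The redox list had, on the duct side, *Cyp1b1* and the peroxiredoxin gene *Prdx2* (-0.87 ± 0.22, adjusted p = 0.0444, kept in 2 of 10). Of 7 basal genes outside the rule, *Sparc* was called and 4 were lower in nipple. Their median of -0.42 is opposite in sign to the difference of their sums, which *Sparc* set. The myeloid, mast cell and lymphocyte lists had no gene with enough counts to test, and the endothelial and the adipocyte, Schwann and melanocyte lists had 1 each (*Notch3* and *Mbp*), not called.

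**Figure D3:**
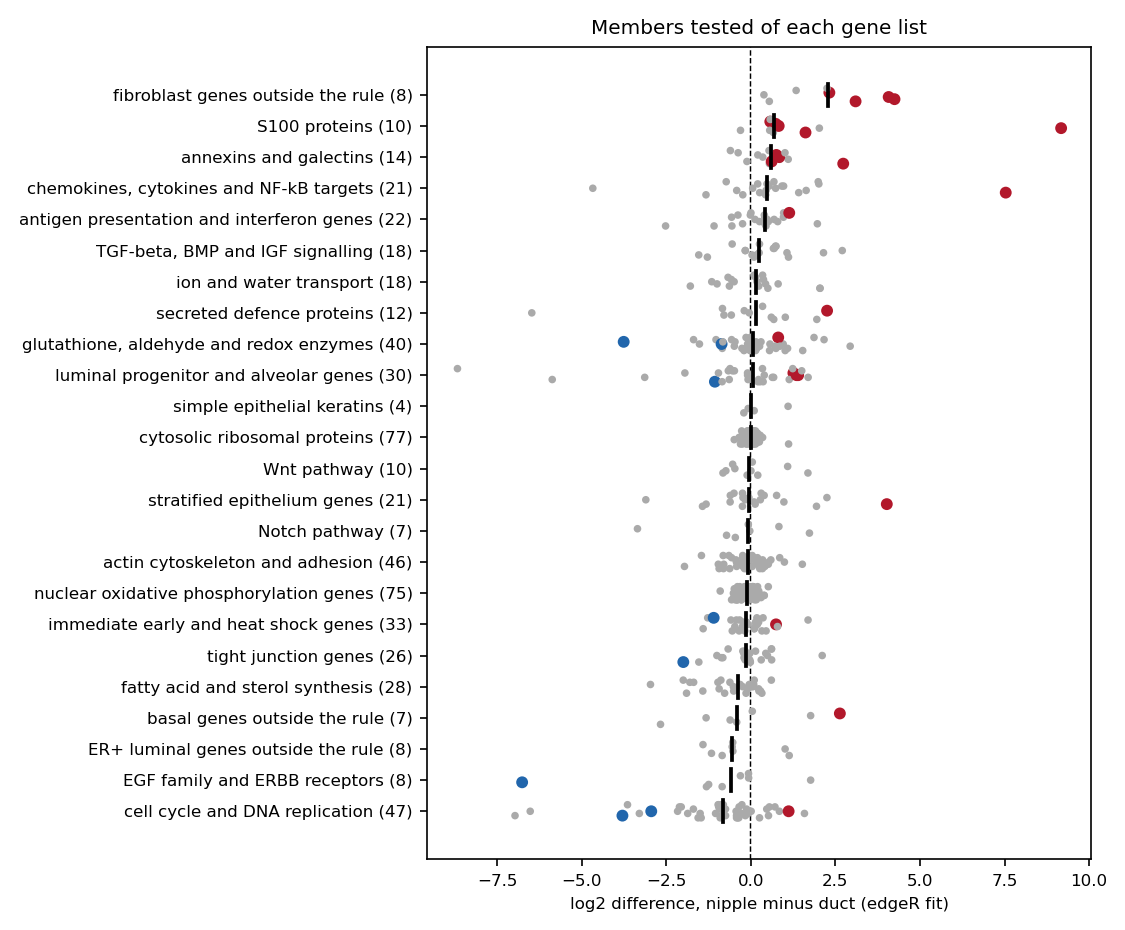
Log2 difference between nipple and duct of each tested gene, by gene list with 4 or more tested genes, in ER- luminal cells (positive is higher in nipple). Called genes are larger and coloured, black bars are list medians, and the dashed line is the median of all tested genes. S100 proteins (median 0.70), annexins and galectins (0.58) and fibroblast genes (2.29) lie to the nipple side and cell cycle genes (-0.82) to the duct side, while ribosomal protein genes (0.00) centre on 0.

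The level of the same genes in the other epithelial classes varied from gene to gene. Pooled CPM without scaling is used here. *S100g* (532 in nipple ER- luminal cells) was at 3.32 in nipple ER+ luminal and 1.34 in nipple basal cells, and *Fcgbp* (217) at 0.95 and 0.45. *Ly6d*, at 1541 in nipple and 89.7 in duct ER- luminal cells, was at 583 and 668 in ER+ luminal cells. *Crip1*, at 5956 and 1191, was at 1846 and 1963 in ER+ luminal cells and at 1038 and 742 in basal cells. On the duct side, *Phactr1* (146) was at 9.08 in duct ER+ luminal and 6.0 in duct basal cells, and *Cldn1* (217) at 6.84 and 3.33, whereas *Emid1* (104) was at 5.26 and 329. The edgeR class by location term did not pass for *Phactr1* (adjusted p = 0.240 against ER+ luminal and 0.639 against basal cells). Nor did it for *Cldn1* (0.827 and 0.487) or *Crip1* (0.0924 and 0.484).

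**Figure D4:**
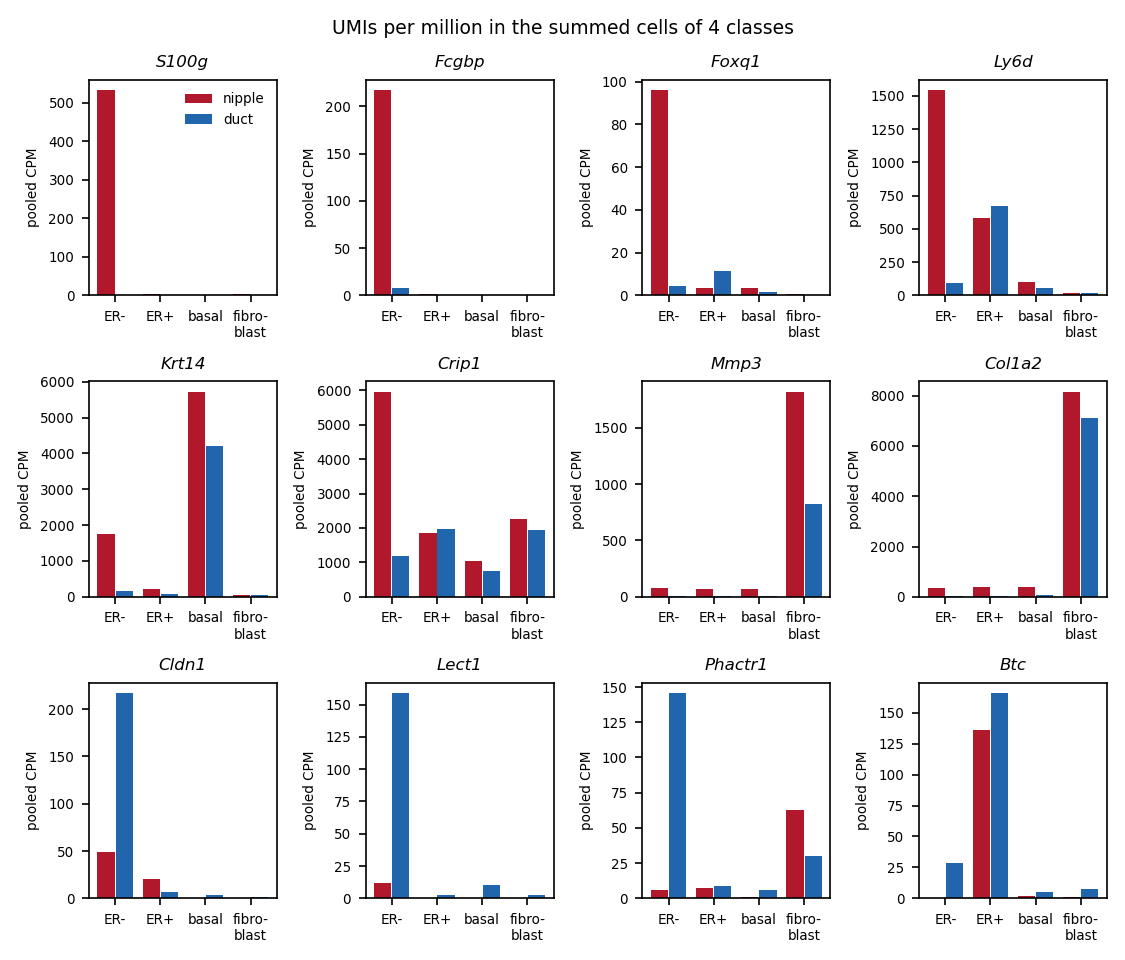
Pooled CPM, without scaling, of called genes and of *Krt14* in ER- luminal, ER+ luminal, basal and fibroblast cells of nipple and duct, 1 bar per class and location, on linear axes that start at 0. *S100g* and *Fcgbp* reach 532 and 217 in nipple ER- luminal cells and at most 3.32 in the other nipple classes, whereas *Col1a2* is alike in the 3 nipple epithelial classes (370, 391 and 390) and highest in fibroblasts.

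Whether the change from duct to nipple itself differed between classes was tested by the class by location term, with the fragment as a block. Against ER+ luminal cells, 16 of 7680 genes (0.208%) passed, of which 7 had the larger change in ER- luminal cells and 12 moved in opposite directions by their means. Against basal cells, 110 of 7360 (1.49%) passed, 54 with the larger change in ER- luminal cells and 88 opposite in direction. These tests share the ER- luminal sums, and 7 genes passed both. The means below are CPM scaled over both classes of a test.

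*Trim29* rose in nipple ER- luminal cells more than in ER+ luminal cells, where the means were 63.5 and 59.2 (difference of differences 3.64 ± 0.67, adjusted p = 0.00919), and more than in basal cells, with 172 and 278 (4.42 ± 0.52, adjusted p = 3.35e-06). *Lgals3* was at 4876 and 2753 in ER- and at 2420 and 2851 in ER+ luminal cells of nipple and duct (1.05 ± 0.14, adjusted p = 0.000451). *S100a6* also differed from both classes (1.07 ± 0.16, adjusted p = 0.00461, and 0.79 ± 0.13, adjusted p = 0.000603), as did *Hspa8* on the duct side (-0.91 ± 0.19, adjusted p = 0.0322, and -1.09 ± 0.22, adjusted p = 0.00468). *Map1b* fell in nipple ER- luminal cells but stood at 270 and 219 in ER+ luminal cells (-2.17 ± 0.37, adjusted p = 0.00461).

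In 4 further genes the means moved up in nipple ER- luminal cells and down in nipple ER+ luminal cells. The class I antigen presentation genes *H2-D1* and *H2-K1* were at 966 and 817, and at 878 and 662, in ER- luminal cells of nipple and duct, but at 685 and 1409, and 650 and 1215, in ER+ luminal cells (1.29 ± 0.20 and 1.23 ± 0.19, adjusted p = 0.00167 for each). *S100a1* was at 730 and 467 in ER- luminal cells of nipple and duct and at 177 and 343 in ER+ luminal cells (1.67 ± 0.25, adjusted p = 0.00167). The glutathione transferase family gene *Mgst3* was at 313 and 162 in ER- and at 90.1 and 200 in ER+ luminal cells (2.09 ± 0.35, adjusted p = 0.00456). None of the 4 was called in ER- luminal cells alone. For *S100g* (adjusted p = 0.583), *Fcgbp* (0.557), *Timp1* (0.495), *Tnfrsf11b* (0.474), *Ly6d* (0.194) and *Foxq1* (0.0544) the difference from ER+ luminal cells did not pass. For *Tnfrsf11b*, *Timp1*, *Fcgbp*, *Foxq1* and *Ly6d* the difference from basal cells did not pass either (adjusted p = 0.263, 0.152, 0.956, 0.413 and 0.179).

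Against basal cells, *S100g* (9.0 ± 1.74, adjusted p = 0.00512), *Eps8* (4.60 ± 1.0, adjusted p = 0.0121) and *Nupr1* (2.09 ± 0.33, adjusted p = 0.000817) had the larger rise in ER- luminal cells, and *Emid1* the larger fall (-3.69 ± 0.61, adjusted p = 0.000817). The smallest p-values belonged to genes that were lower in nipple than in duct basal cells: *S100a14* was at 35.6 in nipple and 203 in duct basal cells (4.18 ± 0.42, adjusted p = 2.42e-07), *Krt19* at 571 and 1732 (1.53 ± 0.15, adjusted p = 2.42e-07) and *Mfge8* at 540 and 1559 (1.89 ± 0.20). Pooled without scaling, duct basal cells held more *S100a14* (200 CPM) than duct ER- luminal (132) or ER+ luminal cells (104), and more *Mfge8* (1483 against 1185 and 165). *Krt19*, a luminal keratin gene, was at 1617 in duct basal cells against 5879 and 6270 in the duct luminal classes, and the part of luminal RNA in its difference was not tested.

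**Figure D5:**
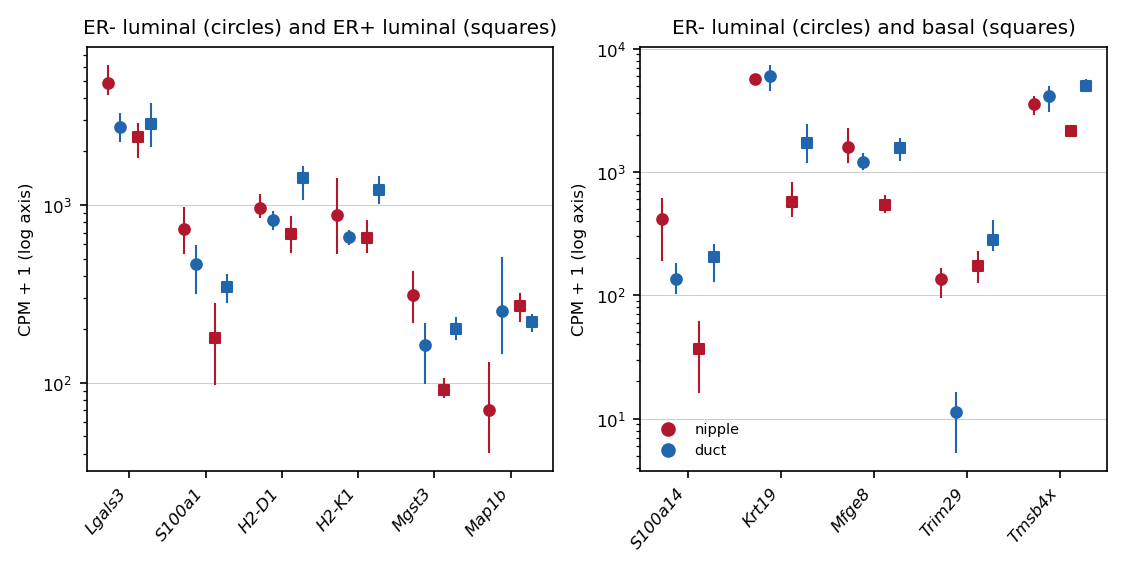
Mean CPM plus 1 (scaled over both classes of each test, log axis) of genes with the smallest p of the class by location term, in ER- luminal cells and in the class compared, for nipple and duct. Vertical lines run from the lowest to the highest of the 4 nipple or 6 duct fragments. *Lgals3* is higher in nipple in ER- luminal cells (4876 against 2753) and not in ER+ luminal cells (2420 against 2851), and *H2-D1* is lower in nipple in ER+ luminal cells (685 against 1409).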

How the data were processed

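The authors extracted cell barcodes and UMIs, trimmed the reads, aligned them to mm10 and deposited a table of raw UMI counts, with genes in rows and cells in columns. The tools named in the submitters' processing notes are UMI-tools, Trim Galore, FastQC, STAR and featureCounts, and their versions are not given in the sources used here. Whether the counting used strand is likewise not given, so a gene and an overlapping antisense gene cannot be told apart, which touches 18 called genes. The table covers 1419 cells, of which 1318 met the study's limits (ERCC at most 5%, 5000 to 120000 UMIs, 200 to 6000 genes). No doublet caller was run.

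Counts without spike-ins were scaled to a common total, log transformed and turned into z-scores per gene over these cells, and each cell took the class with the highest mean z. Raw counts of the class were added up within each fragment that had 5 or more such cells. The sums were tested in edgeR 4.0.16 under R 4.3.3 (filterByExpr, TMM, robust quasi-likelihood fit, location as the only term, all 3 locations, Benjamini-Hochberg adjustment, threshold 0.05). The class by location term had the fragment as a block. The 28 rule genes were kept out of the tests. Means over fragments were compared by exact permutation in scipy 1.17.1. The study's own test over single cells was not used here, since cells of 1 fragment are not independent. SE is the log2 difference divided by the root of the F statistic. CPM is scaled by TMM unless said otherwise.

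The genes named are the 12 with the largest difference in each direction (called genes whose fragments did not overlap and whose higher mean reached 50 CPM), the 6 smallest p of each test, up to 4 called and 2 uncalled members of each list, and the rule genes. *Crip1*, *Timp1*, *Pam*, *Arg1*, *Cxcl1*, *Csf1*, *Col9a1*, *Col9a2* and *S100a11* fall outside this rule and were chosen after their values were seen, as were the genes counted together in single cells. The members, the rule and the lists were chosen with earlier results of these data known. A gene that the rule names for the class by location term is not reported here. Gene positions come from GENCODE M21 (GRCm38) by symbol, and 3 called rows had no match.

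With 1 to 3 UMIs in a location the fold is that of the pooled rates, given with its exact 95% interval, and with 0 it is a bound against 3 UMIs over that location's sums. Such intervals and bounds cover counting error only. Setting genes with 0 UMIs at their bound left the median of every list as printed. The share of RNA from other wells was taken for each fragment as the median ratio of fibroblast and myeloid gene levels in the class to those in the fragment's other cells, times each gene's level there.

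On simulated counts for nipple against duct over 6576 genes, 11% of genes changed by a log2 of 1 and 42% of those changed by 2 were recovered, with 0 false calls and 0 calls when no gene was changed. The class by location test against ER+ luminal cells recovered 4% and 19% over 7186 genes, and against basal cells 3% and 19% over 6837. Of the calls made by these tests, 4.17% and 4.35% were false, and no simulation without changed genes was run for them. Alternatives were RLE size factors, DESeq2 1.42.0, no count filter, nipple and duct sums alone, thinning to 5000 UMIs, other cell and class limits, Seurat 5.3.0 clusters (2000 variable genes, 14 components, resolution 0.5), no fragment block, and each fragment left out. Leaving out genes with over 20% expected from other wells in the higher location, and leaving out D61 with D62, were added after the data were seen.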

Additional observations from a re-analysis of the deposited data

Results flagged for a closer look

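A single fragment stood apart from the rest of its location in 19 of 174 sets of values checked (80 genes and 7 measures), by the gap to its nearest neighbour over the range, a rule that chance alone meets at times. Among measures, mast cell genes stood at 25.9 CPM in D61 and ER+ luminal genes at 261 CPM in the same fragment, and basal genes at 982 CPM in N24. Among called genes, *S100g* was at 4.98 CPM in D62, *Foxq1* at 14.5 in D31, *Col1a2* at 86.3 in D51, *Cyp1b1* at 23.3 in N24, *Map1b* at 512 in D52, *Siva1* at 237 in D61, *Anxa2* at 3039 in D31, and *Ifitm3* at 733 in N24 and 517 in D32. Among genes of the class rule, *Krt14* was at 459 CPM in D61, *Foxa1* at 67.4 in N24, *Col1a1* at 56.7 and *Col3a1* at 141 in D51, *Lyz2* at 38.1 and *Tyrobp* at 28.6 in D32, and *Cdh5* at 1.81 in D31. The direction of each called gene here was the same without that fragment.

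The class by location term picked out genes by the smallest p, among those also tested between nipple and duct. The difference of the log2 changes between ER- and ER+ luminal cells was 1.05 for *Lgals3*, 1.67 for *S100a1*, 1.29 for *H2-D1*, 1.23 for *H2-K1*, 2.09 for *Mgst3* and -2.17 for *Map1b*. Between ER- luminal and basal cells it was 4.18 for *S100a14*, 1.53 for *Krt19*, 1.89 for *Mfge8*, 4.42 for *Trim29* and 0.99 for *Tmsb4x*. All of them were called in all 10 fits without a fragment.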

How the results depend on the processing

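The 78 calls between nipple and duct became 150 with DESeq2 and 149 with no filter on low counts, and 40 without D61 and D62, of which 37 were shared. Without genes over 20% expected from other wells in either location the count was 36, and 56 where only the higher location was considered. Leaving out 1 fragment gave 35 to 59, with 45 without N22, 35 without N24, 42 without D31, 46 without D51, 43 without D61 and 51 without D62. The other alternatives gave 58 to 94 calls. Cells of the ER- cluster alone gave 88, of which 63 were shared, and thinning gave 58, with 31 shared of the 42 calls it could test. No called gene changed sign under any alternative, and RLE size factors moved the median of all genes by 0.03 (log2). The class by location count against ER+ luminal cells went from 16 to 40 with thinning and 27 with a margin of 0.25 (12 to 21 leaving out 1 fragment), and that against basal cells from 110 to 73 with thinning (69 to 100 leaving out 1 fragment, 69 without N21). The cause of these moves was not tested. Median UMIs per cell differed between locations by -10345.7 to -4342.9 leaving out 1 fragment, and by -10345.7 without D32 (exact permutation test, p = 0.0476). The difference of myeloid genes was -5.78 CPM, 2.52 with a margin of 0.25 (exact permutation p = 0.857) and -16.7 to 6.76 leaving out 1 fragment, above 0 without D32 (6.76) and without N22 (0.661). No paired analysis was possible because nipple and duct fragments share no label number. With 4 and 6 fragments of 9 to 20 cells, a log2 difference of 1 was seldom recovered in simulation, so genes not called are not shown to be equal.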
